A study of Mus musculus with 8 samples.

Results

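The neurotransmitter and substrate transporters of the Slc6 gene family were followed as 9 genes, Slc6a2, Slc6a3, Slc6a4, Slc6a6, Slc6a8, Slc6a9, Slc6a11, Slc6a13 and Slc6a17. They were found by the transcript accession that the array design gives each probe, and every probe was kept apart. They are 9 of the 22911 genes named on the array, with 12 of its 56605 probes, and 11 probes of 8 genes passed the filter on dim signal, against 37085 probes in all. The genes were chosen by name with the measured genotype difference of Slc6a2 already known, so the genotype differences of the 9 genes are given as a description without a test.

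Whole retinas came from aged mice of 46 to 55 weeks, homozygous for the loss of Mrp4 (the gene Abcc4, an ATP-driven efflux pump of the plasma membrane) on a C57BL/6J background, or wild-type. Each genotype had 4 samples, and each sample was labelled with Cy3 and hybridised alone to a single-colour Agilent mouse array. The knockout is of the whole animal, so no cell type is singled out. The sources used here state that tissue of several mice was used but not whether a sample is 1 mouse or a pool, and p-values therefore measure only the spread between these samples, which may be technical in part.

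SLC6 transporters carry small molecules into cells against their gradient by coupling them to the inward flow of sodium and chloride. At synapses they end a signal by taking the released transmitter back into the neuron or into neighbouring glia, and other members bring in osmolytes and energy metabolites. In the retina, amacrine cells signal mostly with GABA or glycine, a sparse amacrine type releases dopamine, and photoreceptors depend on taurine and creatine from outside.

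The probe for Abcc4 went against its label. Its normalized log2 signal ranged over 10.64 to 10.84 on the 4 arrays labelled Mrp4-null and over 6.54 to 7.13 on the 4 wild-type arrays, a log2 difference of 3.92 (SE 0.14, limma adjusted p = 1.36e-05). Whether this probe lies inside the deleted part is not given, and every direction below is therefore that of the arrays labelled Mrp4-null against the wild-type arrays. Sex-linked probes also followed the labels in part. The Y-linked genes Ddx3y, Uty, Kdm5d and Eif2s3y were above background on wild-type samples 2, 3 and 4 and on no other array, while Xist, which is transcribed from the inactive X chromosome, had signals of 506.6 to 1162 on the Mrp4-null arrays and on wild-type samples 1 and 2, and 2.668 and 2.642 on wild-type samples 3 and 4. The wild-type samples therefore did not all come from the same animals. Wild-type sample 2 had both Xist and Y-linked signal, so it held RNA of both sexes. The Mrp4-null arrays had Xist and no Y-linked signal, and among the wild-type arrays only sample 1 was like them. Sex and genotype are therefore largely confounded, and the part of sex in the differences below was not tested. The 8 arrays shared 1 slide on which the rows matched the genotypes, so slide row and genotype cannot be told apart. Between 66.0% and 69.9% of probes were well above background on each array. The 75th percentile of the signal was lowest on Mrp4-null sample 2 (497.0) and wild-type sample 3 (513.8) and reached 785.6 on wild-type sample 2.

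Among the 11 retained transporter probes, that of Slc6a2 stood apart from the rest, with higher signal on the Mrp4-null arrays. It was the 1 probe that met the rule used for a changed probe, a 1.5-fold difference at a limma adjusted p under 0.05. This is no test of Slc6a2, since its difference led to the choice of the family and its probe passed the dim filter only through the Mrp4-null arrays. Over all 37085 probes, 0.545% met this rule, 0.256% in the upward and 0.289% in the downward direction. The other 10 probes had differences between -0.12 and 0.49 on the log2 scale, with a median of 0.05, beside a median of -0.01 over all probes. The ranges of the genotypes did not overlap for 1 of the 11 transporter probes, Slc6a2, against 4.79% of all probes, and 2.44% of all probes had every Mrp4-null array above every wild-type array. The local pooled error test, which borrows the spread from probes of similar level, also called 1 transporter probe, against 0.626% of all probes. These counts follow from how the genes were picked and are not read further. The median SD between arrays of a genotype was 0.185 for the transporters and 0.188 for all probes. In whole tissue, fewer cells of a type and less RNA per cell cannot be told apart.

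**Figure D1:**
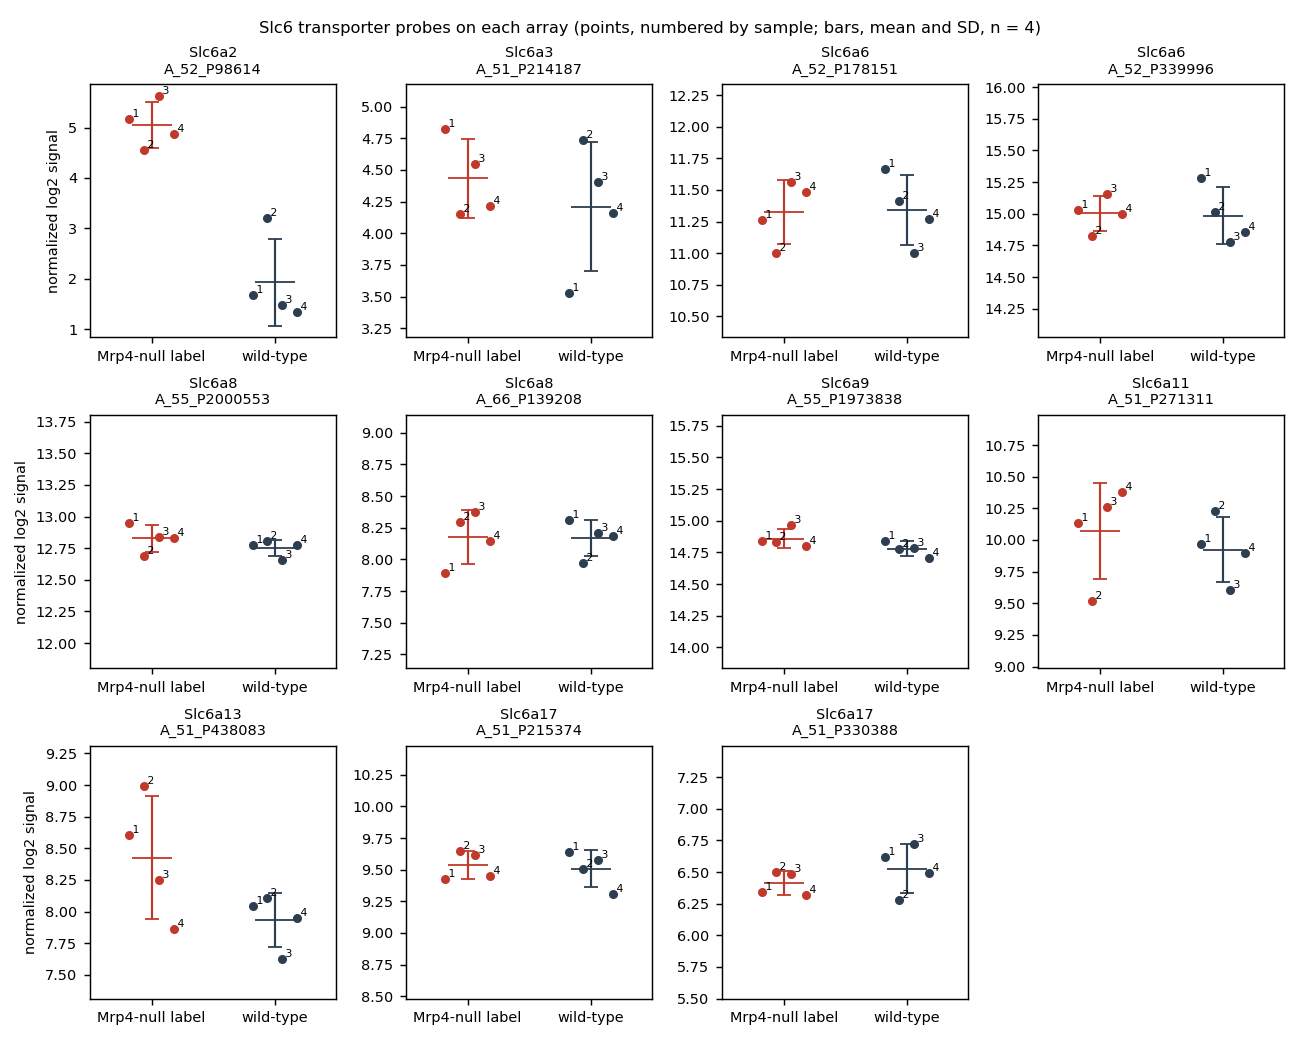
Normalized log2 signal of each of the 11 transporter probes on the 8 arrays, by genotype label, with points numbered by sample and bars for the mean and SD (n = 4). The Slc6a2 panel has a wider axis than the others, and its Mrp4-null points at 4.55 to 5.63 lie above its wild-type points at 1.34 to 3.21, while the points of the genotypes overlap in every other panel.

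Slc6a2 encodes the noradrenaline transporter, which clears noradrenaline and also dopamine from the extracellular space. Before normalization, its probe (A_52_P98614) had signals of 40.64, 20.48, 59.1 and 30.6 on Mrp4-null samples 1 to 4 and of 4.251, 10.2, 2.41 and 2.405 on wild-type samples 1 to 4. The lowest signal called well above background was between 11.5 and 13.8 on each array, so the probe was well above background on all 4 Mrp4-null arrays and on no wild-type array. On the normalized log2 scale the Mrp4-null arrays stood at 5.17, 4.55, 5.63 and 4.87 (mean 5.05 ± 0.46, SD, n = 4) and the wild-type arrays at 1.68, 3.21, 1.48 and 1.34 (1.93 ± 0.87, n = 4). All Mrp4-null arrays were above all wild-type arrays, and wild-type sample 2 was the highest of its group. The measured means differed by 3.13 on the log2 scale (SE 0.41), and because the wild-type level was below background the change is stated as at least 2.53-fold higher. This bound sets the Mrp4-null mean against the mean of the lowest signal well above background on each wild-type array. The spread of this probe within a genotype was larger than that of 99.0% of all probes. Wild-type sample 1 had Xist signal and no Y-linked signal, as the Mrp4-null arrays did, and its Slc6a2 signal was below background. With 1 such wild-type array, the part of sex in the Slc6a2 values was not tested.

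The measured log2 difference of Slc6a2 was 3.04, 3.13 and 2.96 when Mrp4-null sample 1, Mrp4-null sample 4 or wild-type sample 4 was left out, and the rule for a changed probe was then not met. With a normexp background correction and an offset of 50 the difference was 0.57. As with the main value, these describe a gene chosen for its difference and test nothing.

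Slc6a3 encodes the dopamine transporter, a marker of dopamine-releasing neurons. Its probe (A_51_P214187) had normalized log2 signals of 4.82, 4.15, 4.55 and 4.22 on the Mrp4-null arrays and 3.53, 4.74, 4.40 and 4.16 on the wild-type arrays, and the groups overlapped. The log2 difference was 0.23 (SE 0.26), with a 95% interval from -0.36 to 0.81. The signal was low, from 13.13 to 32.04 before normalization, and on wild-type sample 1, the lowest array, the probe was not well above background.

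The serotonin transporter Slc6a4 (A_51_P496253) was not well above background on any of the 8 arrays. Its signals before normalization were 2.83 to 3.208 on 7 arrays and 9.212 on Mrp4-null sample 4. The probe did not enter the comparison.

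**Figure D2:**
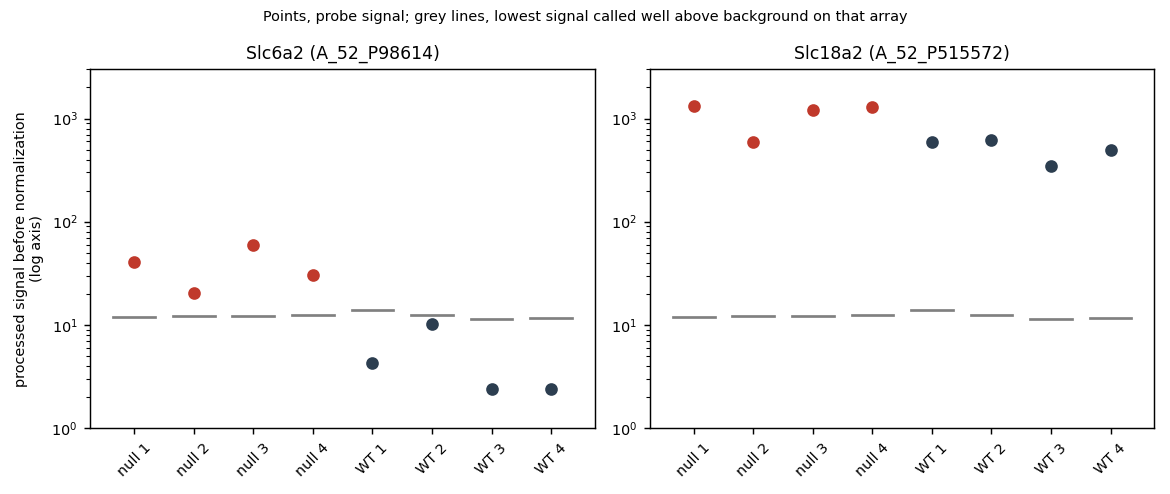
Signal before normalization of the probes for the noradrenaline transporter Slc6a2 and the vesicular monoamine transporter Slc18a2 on each array, on a logarithmic axis, with grey lines at the lowest signal called well above background on that array. The Slc6a2 points of the 4 wild-type arrays lie below their lines and all Slc18a2 points lie above them, and levels are to be compared within a panel only.

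Other genes of monoamine handling were tested with limma over all probes. Slc18a2, the vesicular monoamine transporter that loads dopamine, noradrenaline and serotonin into synaptic vesicles, was the only one called, and it rose. Its normalized log2 signals were 10.11, 9.61, 10.10 and 10.15 on the Mrp4-null arrays (9.99 ± 0.26, SD, n = 4) and 9.10, 9.03, 8.77 and 9.16 on the wild-type arrays (9.02 ± 0.17, n = 4), without overlap. The log2 difference was 0.98 (SE 0.14), or 1.97-fold (limma adjusted p = 0.0237). This gene was known to be called before it was named here. Leaving out any single array except Mrp4-null sample 2 ended the call, with adjusted p between 0.0678 and 0.0888 and log2 differences that stayed between 0.90 and 1.11 over all 8 omissions. Without the dim filter the adjusted p was 0.0658.

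The enzymes of monoamine synthesis and breakdown gave no call. Th, the tyrosine hydroxylase that starts dopamine synthesis, had log2 differences of 0.14 and 0.00 on its probes, and Dbh, which makes noradrenaline from dopamine, had -0.23 (SE 0.17) on its retained probe. The other Dbh probe was too dim to be retained. It was above background on 3 Mrp4-null arrays and 0 wild-type arrays, with signals before normalization of 10.49 to 19.63 and 6.941 to 13.74. Ddc, the decarboxylase that follows Th, was at -0.12, and Tph2, the neuronal enzyme of serotonin synthesis, was at -0.25 (SE 0.15, limma adjusted p = 0.964). Gch1, which makes the cofactor of Th, had the next largest positive difference after Slc18a2 at 0.47 (SE 0.19, adjusted p = 0.722). The breakdown enzymes Maoa and Maob were at -0.18 and -0.09. Slc18a1 and Tph1 were not retained.

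The GABA transporters among the 9 genes were Slc6a11 (GAT3) and Slc6a13 (GAT2), which take up GABA, in the case of GAT2 with a wider choice of substrates. Slc6a11 (A_51_P271311) had normalized log2 signals of 10.13, 9.52, 10.26 and 10.38 on the Mrp4-null arrays and 9.96, 10.23, 9.60 and 9.90 on the wild-type arrays. Values of both groups overlapped, and the lowest values were those of Mrp4-null sample 2 and wild-type sample 3, the arrays with the lowest signal percentiles. The log2 difference was 0.15 (SE 0.20), with a 95% interval from -0.31 to 0.61.

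Slc6a13 (A_51_P438083) had the widest difference of the members that stayed uncalled. Its normalized log2 signals were 8.60, 8.996, 8.25 and 7.86 on the Mrp4-null arrays and 8.04, 8.11, 7.63 and 7.95 on the wild-type arrays. Mrp4-null samples 1, 2 and 3 were above all wild-type arrays, and sample 4 was below 3 of them. The log2 difference was 0.49 (SE 0.23), or 1.41-fold, with a 95% interval from -0.03 to 1.02, and it was 0.31 without Mrp4-null sample 2 and 0.68 without Mrp4-null sample 4. With both low-signal arrays left out it was 0.21.

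Optc and Wfdc1 of the ciliary body list of 3 genes had positive differences, as Slc6a13 had, and none of these was called. The list mean of the normalized log2 signal was 7.51 to 8.29 on the Mrp4-null arrays and 7.04 to 7.54 on the wild-type arrays, with all 3 genes above background on all 8 arrays. Optc, which encodes opticin, a proteoglycan secreted into the vitreous by the ciliary epithelium, stood at 10.17, 10.54, 10.25 and 9.17 against 9.004, 8.79, 7.78 and 8.45 (log2 difference 1.53, SE 0.34, limma adjusted p = 0.158). The other Optc probe (A_55_P2490839) had a log2 difference of 0.95 (limma adjusted p = 0.191) and was highest on Mrp4-null sample 3. Wfdc1 had log2 differences of 0.38 and 0.56 on its probes, and Msx1 of 0.02. Mrp4-null sample 2 was the highest and Mrp4-null sample 4 the lowest of their group for Slc6a13, for the first Optc probe (A_55_P2180904) and for the list mean, while Msx1 was lowest on Mrp4-null sample 1. The lens list went the other way, with means of 6.23 to 8.92 on the Mrp4-null arrays and 7.66 to 10.21 on the wild-type arrays. The part of ciliary body or lens tissue in the Slc6a13 values, or in those of Slc6a2 and Slc18a2, was not tested.

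Slc6a9 encodes GlyT1, the glycine transporter that marks glycine-releasing amacrine cells in the retina. Its probe (A_55_P1973838) was among the steadiest on the array, with a spread within a genotype smaller than that of all but 5.01% of probes. The normalized log2 signals were 14.84, 14.83, 14.97 and 14.80 on the Mrp4-null arrays and 14.84, 14.78, 14.79 and 14.70 on the wild-type arrays. Values of both groups overlapped, and the log2 difference of 0.08 (SE 0.07) had a 95% interval from -0.09 to 0.25, which is within 1.5-fold in either direction.

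Slc6a6 encodes the taurine transporter TauT. Its first probe (A_52_P178151) read 11.26, 10.9998, 11.56 and 11.48 on the Mrp4-null arrays and 11.67, 11.41, 11.01 and 11.27 on the wild-type arrays, as normalized log2 signals. Its other probe (A_52_P339996) read 15.03, 14.83, 15.16 and 15.00 against 15.28, 15.02, 14.78 and 14.86. Both probes were highest on wild-type sample 1 and low on Mrp4-null sample 2 and wild-type sample 3, and both overlapped between genotypes. The log2 differences were -0.01 (SE 0.17) and 0.02 (SE 0.13), with 95% intervals from -0.40 to 0.37 and from -0.27 to 0.31.

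Slc6a8 encodes the creatine transporter and lies on the X chromosome. Its first probe (A_55_P2000553) read 12.95, 12.69, 12.84 and 12.83 on the Mrp4-null arrays and 12.77, 12.80, 12.66 and 12.77 on the wild-type arrays (log2 difference 0.08, SE 0.08). Its other probe (A_66_P139208) read 7.89, 8.30, 8.37 and 8.15 against 8.31, 7.97, 8.21 and 8.18 (0.01, SE 0.12). The groups overlapped on both probes. On Mrp4-null sample 1 the first probe had its highest value of the 8 arrays and the other probe its lowest, so the probes did not follow each other across samples.

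Slc6a17 encodes NTT4, an amino acid transporter of synaptic vesicles. Its first probe (A_51_P215374) read 9.43, 9.65, 9.61 and 9.45 on the Mrp4-null arrays and 9.64, 9.51, 9.58 and 9.30 on the wild-type arrays (log2 difference 0.03, SE 0.10). Its other probe (A_51_P330388) read 6.34, 6.50, 6.49 and 6.32 against 6.62, 6.28, 6.72 and 6.49 (-0.12, SE 0.11). Both overlapped between genotypes.

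**Figure D3:**
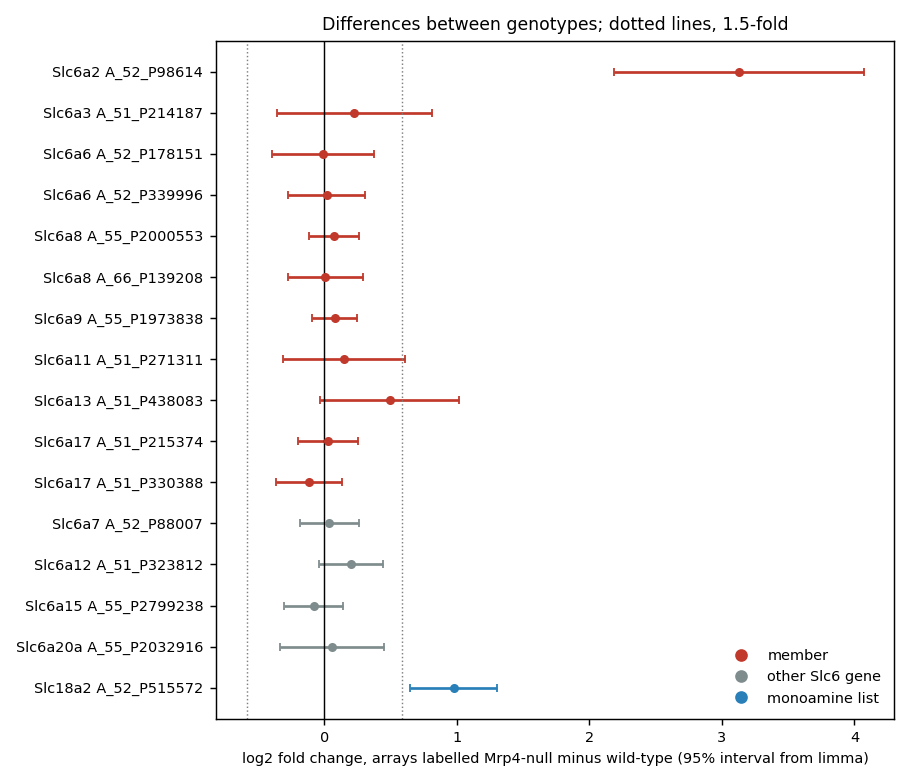
Log2 differences, arrays labelled Mrp4-null minus wild-type, with 95% intervals from limma, for the transporter probes, 4 probes of other Slc6 genes and Slc18a2, with dotted lines at 1.5-fold. Slc18a2 at 0.98 lies to the right of the upper line. The Slc6a2 point at 3.13 and its interval are drawn over a wild-type level below background, for which only the bound of at least 2.53-fold holds, and every other point lies between the dotted lines, from -0.12 to 0.49.

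The rest of the gene family was tested for the same contrast. Of 11 other Slc6 genes, 10 had a probe named for them and 5 had retained probes, 6 in all. None was called by limma, none had an unadjusted p under 0.05, and none was called by the local pooled error test. Over all probes these shares were 0.545%, 6.46% and 0.626%, so a count of 0 among 6 probes is not set apart from the background. The median log2 difference was 0.00. Slc6a12, the betaine and GABA transporter BGT1, had the widest difference at 0.20 (SE 0.11, limma adjusted p = 0.909). The proline transporter Slc6a7 was at 0.04, the neutral amino acid transporter Slc6a15 at -0.08, and the imino acid transporter Slc6a20a at 0.06. Slc6a5 (GlyT2), Slc6a14, Slc6a18, Slc6a19 and Slc6a20b were not retained.

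The genes that make, load or break down the substrates of these transporters gave 50 retained probes of 38 genes, out of 42 genes listed. Slc18a2 was the 1 probe called higher by limma and 0 were called lower, against 0.256% and 0.289% of all probes. An unadjusted p under 0.05 was found for 3, against 6.46% of all probes. The local pooled error test called 1, against 0.626% of all probes. The median log2 difference was -0.04. No GABA gene was called, and the synthesis enzymes Gad1 and Gad2 were at -0.06 and 0.14 and the vesicular transporter Slc32a1, which loads GABA and glycine, at 0.02. In the glycine and D-serine list none was called, and Shmt1, a hydroxymethyltransferase that interconverts serine and glycine, had the largest negative difference of all these lists at -0.31 (SE 0.13, limma adjusted p = 0.729). The taurine and creatine lists held no call either, with Csad, an enzyme of taurine synthesis, at 0.13 and Gamt, which completes creatine synthesis, at -0.22 (SE 0.11, adjusted p = 0.870). The glutamate list of 10 genes, with 14 probes, had no call and a median of -0.04.

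Markers of the labelled tissue were present. All 8 rod genes, all 8 bipolar, all 9 Müller glia, all 6 amacrine and all 9 ganglion cell genes were above background on every array. So were 10 of 12 lens genes, 10 of 11 pigment epithelium genes and all 3 ciliary body genes. The markers therefore do not show retina free of adjoining tissue. No marker of any list was called by limma on its retained probe of highest mean signal, the only probe looked at here. The amacrine list, which stands for the cells that use most of these transmitters, had a mean normalized log2 signal of 10.88 to 11.11 on the Mrp4-null arrays and 10.96 to 11.09 on the wild-type arrays. The ganglion cell list was the only one of the cell type lists whose means did not overlap, at 11.57 to 11.66 and 11.70 to 11.81, a log2 difference of -0.13. Among all single probes 4.79% did not overlap, so this gap is not read further.

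For each retained transporter probe, the most similar pattern over the 8 arrays was sought by Pearson's r among 138 genes of the transmitter, substrate and cell type lists. All these patterns come from the same 8 arrays, so r is given as a description. Slc6a2 was closest to Grm6, the glutamate receptor of ON bipolar cells (r = 0.926), whose normalized log2 signals of 13.75 to 13.86 on the Mrp4-null arrays and 13.57 to 13.63 on the wild-type arrays also did not overlap (log2 difference 0.24, SE 0.07, limma adjusted p = 0.362), so that this r rests on the gap between the labels. Slc6a3 had no close partner, its nearest being the filament gene Vim at r = 0.674. Both Slc6a6 probes were closest to Dkk3, a gene of the Müller glia list, at r = 0.946 and 0.931. Slc6a11 was closest to Aldh5a1, a GABA breakdown enzyme (r = 0.953), Slc6a9 to the bipolar cell channel Trpm1 (r = 0.921) and Slc6a13 to Optc (r = 0.878). The first Slc6a8 probe (A_55_P2000553) was closest to Best1 of the pigment epithelium list (r = 0.927). The Slc6a17 probes had different partners, the vesicular glutamate transporter Slc17a7 (r = 0.874) and the neurofilament Nefl (r = 0.811).

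**Figure D4:**
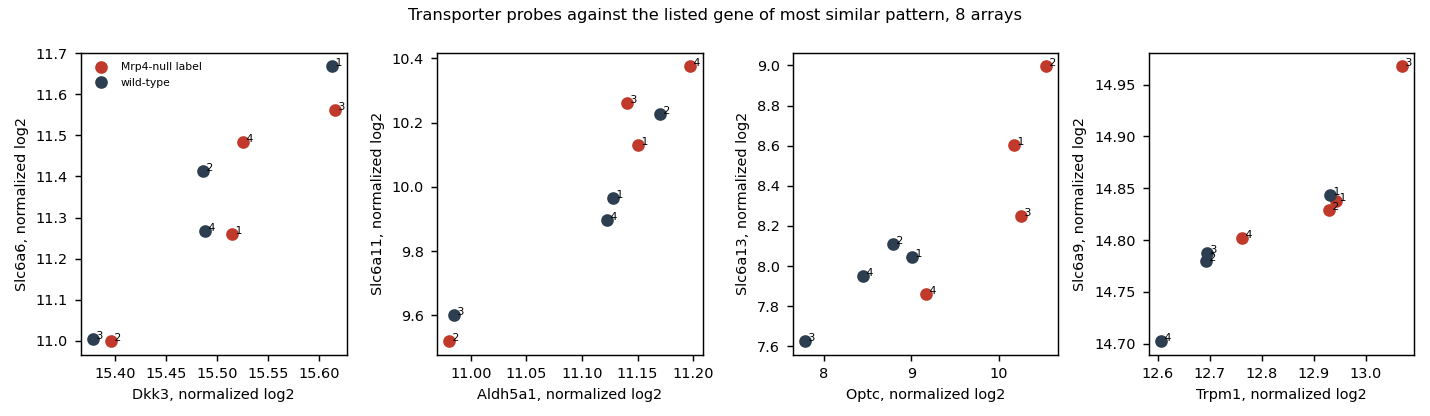
Normalized log2 signal of 4 transporter probes (vertical axes) against the listed gene of most similar pattern (horizontal axes), 1 point for each of the 8 arrays, coloured by genotype label. From left to right, Slc6a6 against Dkk3 and Slc6a11 against Aldh5a1 have Mrp4-null sample 2 and wild-type sample 3 at the bottom left with the other arrays of both labels mixed above them. Slc6a13 against Optc has Mrp4-null samples 1, 2 and 3 at the upper right, and Slc6a9 against Trpm1 has its range set by Mrp4-null sample 3 and wild-type sample 4.

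The surroundings of the transporter genes were then compared, by gene order in a mouse gene table. Slc6a2 lies on chromosome 8, where 35 of 837 tested genes were called (4.18%). This was the highest share of the 20 chromosomes compared, against 0.652% of all named genes. Chromosome 14, which holds Abcc4, had 20 of 558 (3.58%), and chromosome 4, which holds Slc6a9, had 23 of 1015 (2.27%). Every other chromosome had at most 0.601%. Among the 10 tested genes on each side of Slc6a2, 2 were called, and both fell. Crnde, a long noncoding RNA gene, stood at -1.50 (SE 0.13, limma adjusted p = 0.00110) and -0.59 on its probes. Lpcat2, an acyltransferase of phospholipid synthesis, stood at -0.97 (SE 0.11, adjusted p = 0.00676) and -0.78. The nearest tested neighbours, Capns2 and Ces5a, were at 0.55 (adjusted p = 0.446) and 0.19 and were not called. For each of the other 7 retained transporter genes, 0 of 20 neighbours was called by limma. Slc18a2 lies on chromosome 19, where 3 of 547 tested genes were called (0.548%). The choice to look at neighbours was made after the values of Slc6a2 were known.

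**Figure D5:**
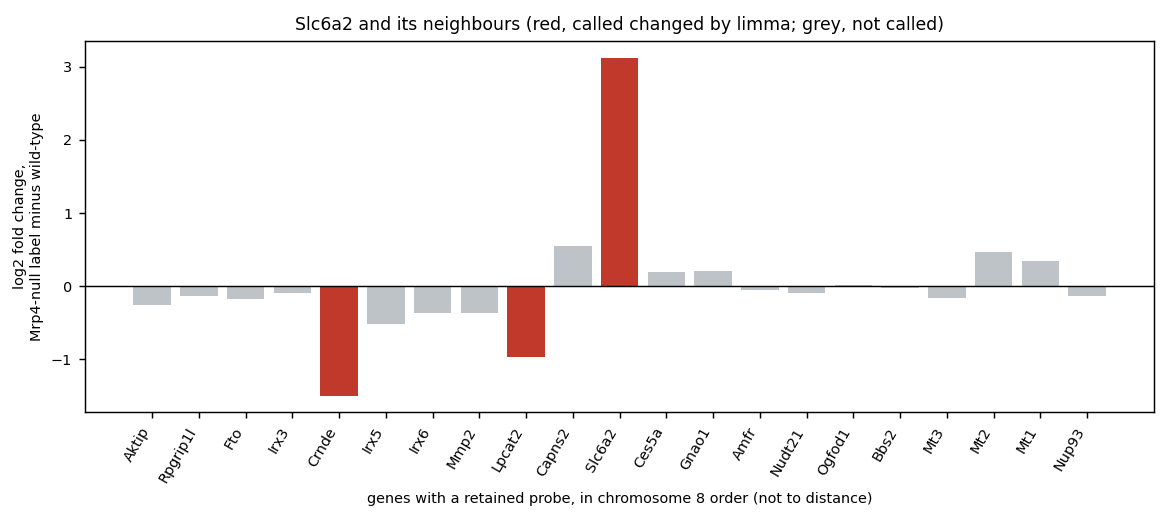
Log2 differences, arrays labelled Mrp4-null minus wild-type, of Slc6a2 and the 10 tested genes on each side of it in chromosome 8 order, 1 probe for each gene, with bars starting at 0 and red bars for genes called changed by limma. Crnde and Lpcat2 fell to -1.50 and -0.97, while the Slc6a2 bar at 3.13 is drawn over a wild-type level below background, for which only the bound of at least 2.53-fold holds.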

How the data were processed

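Scanner files of 8 arrays were deposited, and the intensity used was the authors' processed signal from Agilent Feature Extraction 11.0.1.1, on a linear scale after background correction, with no scaling between arrays. The deposited table of intensities holds the mean processed signal of each probe and served as an alternative. Control and outlier spots were left out, spots of a probe were averaged, log2 values were quantile normalized, and probes were retained if all arrays of a genotype that measured them, at least 3, had them well above background and at least 2 of the other genotype had a value. Accessions named 58.3% of probes through a RefSeq gene table of another build than the array's, so no coordinates are given.

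Genotypes were compared with limma 3.58.1 in R 4.3.3, without covariates, over all 37085 retained probes with Benjamini-Hochberg adjustment, and a probe was called at a 1.5-fold change and adjusted p under 0.05. A local pooled error test was run beside it, written after the authors' methods. Both tests were tested on simulated data, where the local pooled error test made more false calls than limma. The text names every probe of the 9 genes, other retained Slc6 genes, called genes and the largest rise and fall of the substrate lists, and markers beside a result. Further genes of those lists and the neighbours were added after their values were seen. Members and lists were chosen with earlier results of these data known. Some genes of the lists are not reported here by name.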

Additional observations from a re-analysis of the deposited data

Results flagged for a closer look

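Of 36 groups of 4 arrays screened, 1 held an array far from the rest. For Slc18a2, Mrp4-null sample 2 stood at 9.61 in normalized log2 signal while the other 3 Mrp4-null arrays lay between 10.10 and 10.15, so the gap made up 0.918 of the range of the group. Chance alone marks about 1 in 20 such groups. The same array had the lowest 75th percentile of signal, and the part of this in the Slc18a2 value was not tested.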

How the results depend on the processing

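The count of transporter probes called changed was 1 and became 0 under the normexp correction with an offset of 50, without the dim filter, with only probes well above background on all 8 arrays (where Slc6a2 and Slc6a3 were not tested) and with both low-signal arrays left out. It ranged from 0 to 1 when single arrays were left out. The count over the transmitter and substrate lists was 1, became 0 without the dim filter and ranged from 0 to 1 when single arrays were left out. The count for the other Slc6 genes was 0 under all alternatives. The Slc18a2 difference stayed between 0.90 and 1.11 (alternatives added after its call was seen), and that of Abcc4 between 3.29 and 4.00. Slc6a2 kept its sign wherever it was tested, and its difference under normexp was 0.57, where the added offset exceeds most of its signals. Of the other 10 transporter probes, 4 changed sign under some alternative, those of Slc6a6 and 1 each of Slc6a8 and Slc6a17, and all values moved by less than 1 SD. Equal sample numbers did not pair the samples (r of -0.29, -0.69, 0.03 and 0.41 between same-numbered arrays, and not every array was closest to its own number). With the replicate number as a block, 71 probes were called in place of 202, with 0 transporter probes and 0 probes of the substrate lists among them and an adjusted p of 0.155 for Slc18a2. Over all probes, calls were 202, and 143 under normexp, 128 without both low-signal arrays and 117 to 188 when single arrays were left out. With 4 arrays a genotype, and Slc6a2 and Slc6a3 near or below background, their differences had the largest SE among the transporter probes, and Slc6a4 gave no difference.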
